A study of Mus musculus with 67 samples.

Results

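Of 111638 chromatin elements measured by CaTS-ATAC in neural progenitors (NPs) made from mouse embryonic stem cells, 986 were more accessible in each of the 3 ventral NP types, p2, pMN and p3, than in p0-1 NPs. They were chosen on the scale of the deposited values, a variance-stabilizing transformation (VST) of normalized read counts that is close to log2. The mean of each cell type was taken over all samples of days 5 and 6 with the concentrations of SAG, an agonist of Sonic Hedgehog (Shh) signaling, pooled. Each of p2, pMN and p3 had to be at least 0.75 above p0-1, and the highest of them had to reach 7, a level of 115 normalized counts. Values of days 5 and 6 chose the elements, and their differences from p0-1 are given below as a description with no test. The samples of day 3 and day 4 took no part in the choice. The working name of the set, ventral elements absent from p0-1, went against the data, because most of them had signal in p0-1. The median element held 49.2 normalized counts in p0-1 on days 5 and 6, while the median over all elements was 37.3. Of the 986, 39 were under 10 counts in p0-1, and 169 reached VST 7 there. The set is called the ventral elements here.

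CaTS-ATAC gives chromatin accessibility of cell types that have no surface marker. Cells are fixed, cut by the Tn5 transposase, stained for intracellular proteins and sorted, and the reads come from the cut DNA of the sorted cells. All 67 samples were HM1 embryonic stem cells, a single mouse line, differentiated toward spinal cord. They make 25 conditions, 17 with 3 replicates and 8 with 2. In the study's protocol retinoic acid was given from day 3 onward, with or without SAG. Neuromesodermal progenitors (NMPs) were taken at day 3, before retinoic acid and SAG. At days 4, 5 and 6 p0-1 NPs were sorted at 0 and 10 nM SAG, p2 at 10 and 100 nM, and pMN and p3 at 100 and 500 nM. The rule that chose the elements used 11 samples of p0-1, 12 of p2, 9 of pMN and 9 of p3. SAG concentration and cell type are partly tied: only 10 nM was sorted for both p0-1 and p2, and no concentration was shared by p0-1 and pMN or p3, so that for these pairs cell type and concentration cannot be told apart. By the study's markers, p0-1 cells express PAX6 without NKX6.1, and p2 cells express both. In bulk samples, fewer cells with an open element and less signal per cell cannot be told apart. The labels do not say how replicates were made, and the study describes its biological replicates as separate differentiations.

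In the ventral neural tube, Shh from the notochord and floor plate is read as a gradient. Progenitors that receive more of it take up more ventral fates, p3 being the most ventral, then pMN, which gives motor neurons, then p2, p1 and p0, which give interneurons. Inside the cell the GLI proteins carry the signal to DNA, and each domain is then held by transcription factors that repress one another. Distal elements, or enhancers, are stretches away from promoters where such factors bind, and a gain in accessibility there means that the transposase can reach the DNA more often. E-boxes are the short motifs of basic helix-loop-helix factors, among them OLIG2 of pMN progenitors and the proneural factors that start neuronal differentiation.

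The sequences of 7 ventral elements are shown because they stand for the ways in which the elements behaved at day 4 and with SAG. Each is the central 300 bases of the element, read from the plus strand of GRCm38.p6, the mm10 build of the deposited coordinates. Elements carry the name of the gene with the nearest transcription start site (TSS) in the deposited annotation, with the distance to it in bp, negative when upstream. The name does not say which gene an element acts on. The first 4 hold ACCACCC, the core letters of a GLI motif, in capitals on either strand (GGGTGGT on the minus strand). They are intergenic at -8166 bp from Nkx2-9 (chr12:56621300-56621599), intergenic at 44656 bp from Gm815 (chr19:26930431-26930730), in an intron at 15890 bp from Ptch1 (chr13:63549695-63549994) and intergenic at -31322 bp from Pla2r1 (chr2:60584480-60584779).
Nkx2-9: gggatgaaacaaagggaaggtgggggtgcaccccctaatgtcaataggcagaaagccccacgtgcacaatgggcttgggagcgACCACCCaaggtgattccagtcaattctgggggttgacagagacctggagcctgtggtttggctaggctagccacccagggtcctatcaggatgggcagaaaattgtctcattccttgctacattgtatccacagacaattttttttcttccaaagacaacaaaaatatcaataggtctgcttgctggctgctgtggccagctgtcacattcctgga
Gm815: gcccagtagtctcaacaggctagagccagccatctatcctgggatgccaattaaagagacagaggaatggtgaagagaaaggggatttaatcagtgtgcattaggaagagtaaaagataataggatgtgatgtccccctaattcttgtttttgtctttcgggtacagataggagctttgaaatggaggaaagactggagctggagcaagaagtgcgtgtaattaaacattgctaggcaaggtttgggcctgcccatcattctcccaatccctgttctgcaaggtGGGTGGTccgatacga
Ptch1: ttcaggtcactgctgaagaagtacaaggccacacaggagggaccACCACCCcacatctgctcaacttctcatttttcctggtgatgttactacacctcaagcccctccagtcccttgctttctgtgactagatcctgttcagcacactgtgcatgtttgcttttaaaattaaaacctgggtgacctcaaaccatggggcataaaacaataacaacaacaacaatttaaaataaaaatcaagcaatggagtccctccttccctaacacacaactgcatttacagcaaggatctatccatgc
Pla2r1: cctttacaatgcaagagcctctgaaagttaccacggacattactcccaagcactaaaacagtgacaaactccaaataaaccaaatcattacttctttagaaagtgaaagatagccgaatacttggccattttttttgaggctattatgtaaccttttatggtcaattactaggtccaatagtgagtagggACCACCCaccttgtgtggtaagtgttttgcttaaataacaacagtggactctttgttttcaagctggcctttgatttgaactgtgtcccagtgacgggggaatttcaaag
The other 3, all intergenic, have capitals at the E-box CAGCTG and the E-box CAGATG on either strand, the latter reading CATCTG when on the minus strand. They are at 20584 bp from Neurod4 (chr10:130259520-130259819), with 6 E-boxes of which 1 CAGCTG directly follows another, at 558315 bp from Isl1 (chr13:115751223-115751522), with 3, and at 250113 bp from Nkx6-1 (chr5:101414448-101414747), with 2.
Neurod4: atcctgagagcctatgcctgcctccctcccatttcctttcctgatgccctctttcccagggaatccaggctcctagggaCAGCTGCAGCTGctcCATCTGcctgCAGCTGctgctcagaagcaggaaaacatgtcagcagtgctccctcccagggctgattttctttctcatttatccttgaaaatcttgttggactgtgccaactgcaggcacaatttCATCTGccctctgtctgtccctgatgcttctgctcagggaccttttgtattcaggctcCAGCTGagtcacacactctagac
Isl1: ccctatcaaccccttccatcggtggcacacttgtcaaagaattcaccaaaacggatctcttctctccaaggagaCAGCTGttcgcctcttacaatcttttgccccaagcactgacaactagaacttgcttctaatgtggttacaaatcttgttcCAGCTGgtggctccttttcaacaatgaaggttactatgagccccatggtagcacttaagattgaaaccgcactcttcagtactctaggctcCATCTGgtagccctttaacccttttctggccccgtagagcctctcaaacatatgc
Nkx6-1: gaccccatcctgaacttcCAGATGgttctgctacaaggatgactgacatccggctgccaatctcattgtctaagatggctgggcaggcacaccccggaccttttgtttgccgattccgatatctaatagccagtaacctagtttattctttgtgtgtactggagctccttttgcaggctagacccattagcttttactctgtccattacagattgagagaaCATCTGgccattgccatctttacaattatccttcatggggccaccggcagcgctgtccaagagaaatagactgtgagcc
Capitals mark only the letters named for each group. The Nkx2-9 window also holds 1 CAGCTG and the Ptch1 window 1 CAGATG (as CATCTG), both left in lower case. A match of letters is a description and not evidence of binding.

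The reads counted in elements numbered from 9298160 to 29985325 in a sample (median 20254011). The labelled cell types were checked at elements nearest the TSS of marker genes. The Olig2 element at 742 bp, itself one of the ventral elements, had a mean of 2118 normalized counts in pMN and 393 in p0-1 on days 5 and 6. Dbx1, a factor of the p0 domain, had 2298 in p0-1 and between 669.9 and 974 in the ventral types. The other p0-1 markers were also highest in p0-1, some by little. Pax6 had 3587 in p0-1, 3343 in p2 and 1909 in p3. Irx3 had 2883 in p0-1, 2522 in p2 and 2165 in p3. Dbx2 had 349 in p0-1, 302 in pMN and 107 in p3. Pax6 and Irx3 thus hardly set p2 apart from p0-1. Foxa2, which marks floor plate and was also more open in p3, had 1481 in p3 and between 320.2 and 349 in the other NP types, and 1494 in NMPs. The 3 pluripotency markers summed to between 81.5 and 88.1 counts in the 4 NP types on days 5 and 6 and to 2021 in NMPs. All 5 neuronal markers (Tubb3, Elavl3, Isl1, Mnx1 and Lhx1) had signal at an element near their TSS in every type. Their summed level on days 5 and 6 was 4597 in p0-1, 5495 in p2, 5354 in pMN and 4438 in p3. Of the 5, Tubb3 and Elavl3 had a higher mean in each of p2, pMN and p3 than in p0-1. The part of neurons in the values of the ventral elements was not tested.

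The ventral elements were distal. By the deposited annotation, 487 were intergenic, 459 lay in introns, 19 in exons, 8 at transcription end sites and 13 at promoters. Of the 986, 963 (97.7%) were more than 2000 bp from a TSS. The share was 65.2% of the 35625 other elements that reached VST 7 in at least 1 NP type, which serve as the comparison set and are called other accessible elements. The median distance to a TSS was 54797.5 bp, against 13404 bp for the other accessible elements. Of all elements, 86.3% were more than 2000 bp from a TSS. So were 97.5% of the 444 elements that met the opposite rule, lower in each ventral type than in p0-1. Their median distance was 51324.5 bp, so a distal position was not particular to the ventral elements. Chromosome 5 held 100 ventral elements, 10.1% of them, and 6.13% of all elements.

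Within the set, pMN and p3 were higher than p2. On days 5 and 6 the median ventral element had 49.2 normalized counts in p0-1, 136 in p2, 185 in pMN and 193 in p3. The highest mean was that of pMN for 495 elements, of p3 for 433 and of p2 for 58. The smallest of the 3 excesses over p0-1, called the margin here, was set by p2 for 609 elements. It had a median of 1.00 on the VST scale and a largest value of 2.30, and 10 elements had a margin of at least 2. The means of p2, pMN and p3 were within 1 VST unit of each other for 525 elements. Just inside the threshold were Elavl4 at -73 bp and Crtam at -3159 bp, with margins of 0.7505 and 0.7510, and just outside were Kif16bos at 77921 bp and Gpr52 at 120215 bp, with 0.7497 and 0.7495. A further 994 elements met the margin but reached VST 7 in no ventral type.

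The median over the ventral elements was computed in each sample to follow them in time. It was lowest in the 3 NMP samples, at VST 4.35, 4.46 and 4.60. At day 4 it lay between 5.33 and 5.83 in p0-1, between 6.09 and 6.49 in p2, between 6.36 and 6.74 in pMN and between 6.23 and 6.89 in p3. All ventral samples of day 4 were thus above all p0-1 samples of that day, in data that did not choose the elements. By day 6 the range was 5.57 to 6.37 in p0-1, 7.20 to 7.42 in p2, 7.50 to 8.01 in pMN and 7.89 to 8.0 in p3. Between day 4 and the mean of days 5 and 6, the median element gained 0.90 in p2, 0.94 in pMN and 1.14 in p3, and 0.24 in p0-1. The rule asked for higher values in the ventral types than in p0-1 on days 5 and 6. It thus favours a larger gain in them, and these gains are a description. In p0-1, 237 elements gained at least 0.75, 127 lost at least 0.75 and 622 moved less. Other accessible elements had sample medians that differed little between cell types, as the plot of sample medians shows.

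**Figure D1:**
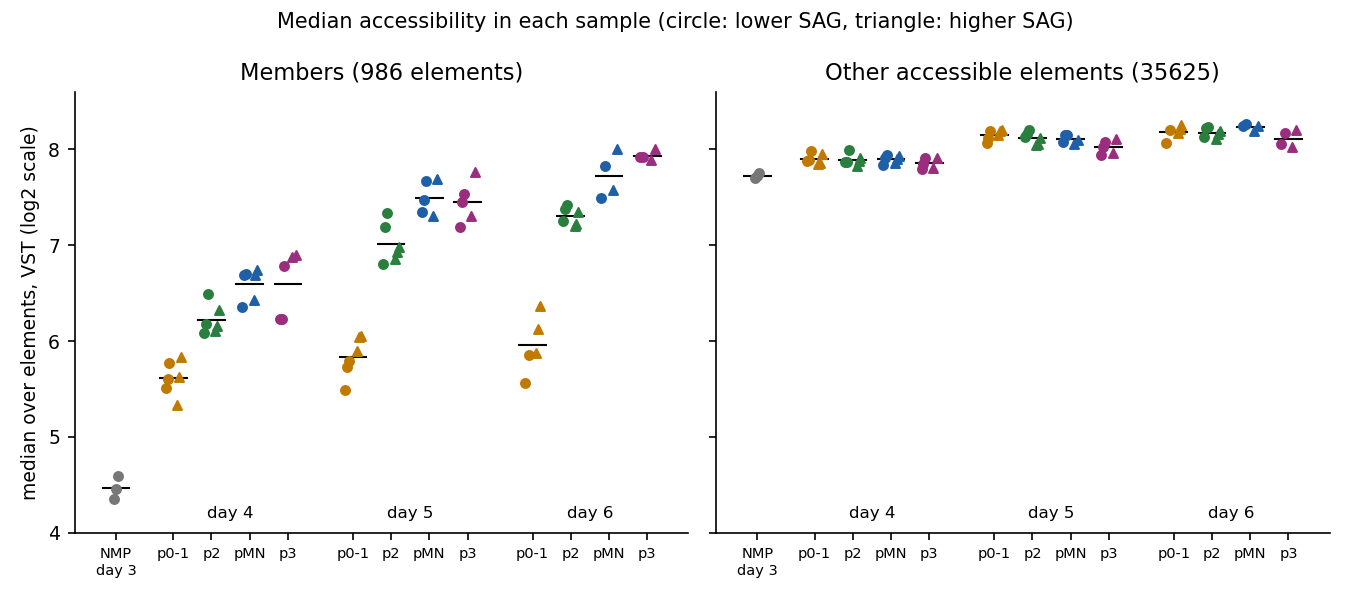
Median VST (y axis) of the 986 ventral elements (left) and of the 35625 other accessible elements (right) in each of the 67 samples, by day and cell type; each point is 1 sample and bars are means, circles the lower and triangles the higher SAG concentration of each type. The ventral elements lie between 4.35 and 4.60 in NMPs and at day 4 between 5.33 and 5.83 in p0-1, below every p2, pMN and p3 sample.

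To ask whether the difference from p0-1 was present before days 5 and 6, p2, pMN and p3 were each compared with p0-1 at day 4, the SAG concentrations being pooled within a type. Calls came from limma over all 111638 elements and needed an adjusted p under 0.01 with a difference above 1 on the VST scale. Higher accessibility was called for 71 of the 986 ventral elements in p2, where the background was 0.172% of all elements. For pMN 399 were called against a background of 3.2%, and for p3 359 against 4.31%. These are 7.2%, 40.5% and 36.4% of the ventral elements. In the opposite direction 0 were called in p2, 2 in pMN and 0 in p3 (backgrounds 0.000896%, 0.314% and 2.53%), and at an unadjusted p under 0.05 4, 13 and 16 were lower (3.34%, 10.6% and 15% of all elements). The median difference at day 4 was 0.53 in p2, 0.87 in pMN and 0.77 in p3, and over all elements it was 0.01, -0.01 and -0.02. For 927, 934 and 866 of the ventral elements the difference was above 0. Every sample of the ventral type was above every p0-1 sample at 215 elements in p2 (background 1.59%), 541 in pMN (6.85%) and 388 in p3 (6.36%). The 3 comparisons share their 6 p0-1 samples and are not independent of each other. The p2 count rests on all 3 replicates: it was between 0 and 1 when any one was left out, and 140 when replicate numbers entered as a block. For p3, leaving out replicate 3 gave 190.

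**Figure D2:**
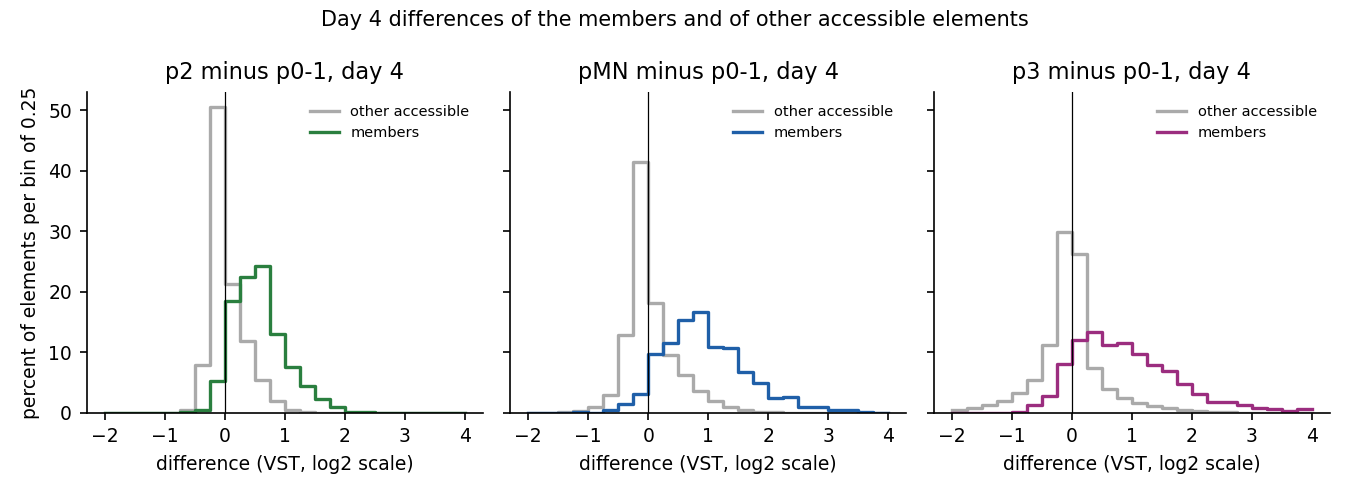
Distribution of the day 4 difference from p0-1 on the VST scale (x axis) in p2, pMN and p3, as the percent of elements per bin (y axis), for the ventral elements (members) and the other accessible elements; differences below -2 or above 4 are not drawn. The ventral elements are centered at 0.53, 0.87 and 0.77, and the other accessible elements near 0.

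At 10 nM SAG, p2 and p0-1 were sorted from the same concentration, with 3 samples each. No ventral element was called in this comparison by limma, where the background was also 0%, and the lowest adjusted p was 0.303. At an unadjusted p under 0.05, 416 (42.2%) were higher in p2 and 0 lower, where 10.3% and 1.52% of all elements were. All 3 p2 samples were above all 3 p0-1 samples at 382 ventral elements (38.7%), against 10.1% of all elements. The median difference was 0.58, close to the 0.53 of the pooled comparison. The 444 elements of the opposite rule, lower in each ventral type on days 5 and 6, were also shifted up at 10 nM. Their median difference was 0.28, with 75.2% above 0, against -0.14 and 30% in the pooled comparison. Over all elements, p0-1 at 10 nM replicate 3 had the lowest sample median of day 4, at 5.33. Its part in the 10 nM differences was not tested. Letting all 67 samples share the estimate of the spread gave 85 calls.

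The ventral types also differed from each other at day 4. Of the ventral elements, 70 (7.1%) were higher in p3 than in pMN (background 2.19%) and 69 (7%) were lower (background 5.4%). Of the other accessible elements 2.75% were higher and 8.06% lower. The share of lower elements was thus near the background and not particular to the ventral elements. All 70 that were higher in p3 had their highest mean in p3 on days 5 and 6, and 61 of the 69 lower ones had theirs in pMN, in samples of other days. Among the 495 elements highest in pMN on days 5 and 6, 231 (46.7%) were called at day 4 in pMN and 112 (22.6%) in p3. Among the 433 highest in p3, 155 (35.8%) were called in pMN and 244 (56.4%) in p3. The 58 highest in p2 were seldom called at day 4, with 1 in p2, 13 in pMN and 3 in p3.

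From NMPs to day 4, accessibility rose at many ventral elements in all 4 types. Against NMPs, 435 were higher in p0-1 (background 23.3%), 629 in p2 (28%), 717 in pMN (28.1%) and 700 in p3 (25.3%), and 39, 17, 10 and 17 were lower (18.6%, 20.2%, 20.4% and 19.9%). The median differences were 0.83, 1.43, 1.82 and 1.82, and over all elements between 0.03 and 0.12. The 4 comparisons share the 3 NMP samples. In the order p0-1, p2, pMN and p3, 44.1%, 63.8%, 72.7% and 71% of the ventral elements were higher. Of the other accessible elements 31.7%, 34.6%, 34.9% and 31.8% were. A mirror set holds 444 elements by the opposite rule on days 5 and 6. In it p2, pMN and p3 were each at least 0.75 below p0-1, which reached 7. Of these 64%, 62.8%, 54.5% and 37.6% were higher, so a rise from NMPs was not particular to the ventral elements. In NMPs 67 ventral elements were at VST 7 or more.

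Among single elements, that at -8166 bp from Nkx2-9, a homeobox gene of the most ventral progenitors, had the largest difference of all ventral elements in p2 and pMN at day 4, and the next largest in p3 after Plekhb2 at 144757 bp (4.26). All 4 elements annotated between 3032 bp and -8166 bp of this TSS on chromosome 12 were ventral elements. At -8166 bp (chr12:56621016-56621884), the 3 NMP samples had 4.31, 4.85 and 8.09 normalized counts. At day 4 the 6 p0-1 samples ranged from 14.4 to 41.3 with a median of 17.3, and those of p2 from 55.5 to 369.6 with a median of 177. The 6 pMN samples ranged from 370.4 to 1015 with a median of 698, and the 5 p3 samples had 438, 453, 619.5, 731 and 759.9. No sample of a ventral type overlapped p0-1. The difference was 2.34 ± 0.36 (SE) in p2, 4.30 ± 0.25 in pMN and 4.14 ± 0.24 in p3 on the VST scale (adjusted p = 0.00556, 4.1e-08 and 1.87e-07 from limma), or 7.87, 28.7 and 25.1-fold in mean normalized counts. On days 5 and 6 the medians were 22 in p0-1, 93.2 in p2, 496 in pMN and 426 in p3. The promoter element at -344 bp changed less, with 614 counts in p0-1 on days 5 and 6 and 2171 in p3.

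Of the Hedgehog pathway genes, Ptch1, the Shh receptor and itself a target of the pathway, had 4 ventral elements within 54474 bp on chromosome 13. At the widest, at 58841 bp (chr13:63503435-63510354), day 4 counts ran from 69.8 to 220.4 in p0-1 with a median of 119, and from 262 to 1257 in p2 with a median of 456. In pMN they ran from 905 to 2002 with a median of 1205, and in p3 they were 1238, 1502, 1818, 1825 and 1990. The ranges of p0-1 and the ventral types did not overlap. The difference was 3.33 ± 0.25 in pMN and 3.68 ± 0.24 in p3 (adjusted p = 3.74e-07 and 4.62e-07 from limma), 10.5 and 13.1-fold, while that in p2, 1.96 ± 0.35, missed the threshold (adjusted p = 0.0115, 0.0041 with the replicate block). At the intronic element at 15890 bp the differences were 2.11 ± 0.26 in pMN and 2.61 ± 0.24 in p3. The remaining Hedgehog elements were at Hhip, which encodes an inhibitor that binds the ligand, and at Disp1, needed for release of the ligand. The Hhip element at -119079 bp was called in pMN, with a median of 208 counts against 86.7 in p0-1 and a difference of 1.51 ± 0.31 (adjusted p = 0.00275 from limma), and in p3 it had 0.89 ± 0.34. At Disp1 no day 4 comparison with p0-1 was called. In all, 6 of the 146 elements annotated to 15 Hedgehog genes (4.11%) were ventral elements, where the share of all elements was 0.883%. The mirror set held 3 of the 146, and 444 of all 111638. Of the 6, 5 were called at day 4 in pMN, 4 in p3 and 0 in p2. The shares of all ventral elements called were 40.5%, 36.4% and 7.2%.

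Ventral identity factors were the list with the largest share. Of the 152 elements annotated to them, 25 (16.4%) were ventral elements, where the share of all elements was 0.883%. At day 4, 7 of the 25 were called in p2, 14 in pMN and 7 in p3. The shares of all ventral elements called were 7.2%, 40.5% and 36.4%, so that in p3 the list was not above the whole set. The run at Olig1 and Olig2, the basic helix-loop-helix factors of pMN, had its largest values in pMN. At 28122 bp from Olig1 (chr16:91297498-91298284), day 4 counts were between 591 and 810.4 in pMN and between 207 and 399 in p2. They were between 68.5 and 183 in p0-1 and between 62.6 and 176 in p3, so that p3 and p0-1 overlapped at day 4. The differences from p0-1 were 2.80 ± 0.18 in pMN and 1.61 ± 0.21 in p2 (adjusted p = 1.04e-07 and 0.00249 from limma), and 0.38 ± 0.25 in p3 (adjusted p = 0.36). The difference between p3 and pMN was -2.42 ± 0.18 (adjusted p = 5.96e-08). By days 5 and 6 the p3 samples had from 166 to 317 counts and the p0-1 samples from 43.3 to 127, which is how this element met the rule. Foxa2, which is expressed in floor plate and early ventral progenitors, had 1 ventral element at 9968 bp, with differences of 2.13 ± 0.32 in p2, 3.25 ± 0.21 in pMN and 3.01 ± 0.26 in p3. Its p2 median was 439 counts at day 4 and 52.8 on days 5 and 6, and that of p3 780.5 and 408.

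Nkx6-1, a repressor made by all 3 ventral types and absent from p0-1 by the markers that define the types, had the most ventral elements of any gene. It had 12 among its 29 annotated elements, all downstream of the TSS, from 8798 to 367191 bp (chr5:101296936-101656702), in which they were 12 of 23 elements and of 17 accessible ones. The promoter element at -132 bp was no member, with 1387 counts in p0-1 and between 2242 and 2404 in the ventral types on days 5 and 6. The 12 did not share 1 pattern at day 4. At 16279 bp, p0-1 ranged from 44.8 to 137 with a median of 81.7, p2 from 140.2 to 261, pMN from 246 to 397, and p3 was 140.3, 235, 244, 262 and 264. Its 3 NMP samples, with 140, 213 and 238, were above every p0-1 sample of day 4, and p0-1 was lower than NMPs by -1.21 ± 0.28 (adjusted p = 0.00153 from limma). The differences from p0-1 were 1.22 ± 0.21 in p2 (adjusted p = 0.0111, 0.0037 with the replicate block), 1.89 ± 0.20 in pMN and 1.41 ± 0.24 in p3.

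At 167285 bp from Nkx6-1, the ranges of p2, pMN and p3 each overlapped that of p0-1 at day 4, with medians of 189 in p0-1, 214 in p2, 187 in pMN and 279 in p3, and no difference from p0-1 was called. Each type was higher there than NMPs, by 1.95 ± 0.22 in p0-1 and 2.5 ± 0.19 in p3. On days 5 and 6, whose samples chose the element, the p0-1 median was 63.3 and that of p3 684. At 250113 bp, whose sequence is given above, all samples of day 4 had between 6.06 and 41.9 counts and none of the differences was called. On days 5 and 6 the medians were 27.1 in p0-1, 139.9 in p2, 154 in pMN and 115 in p3. Of the 12, 3 were called at day 4 in p2, 6 in pMN and 2 in p3. Of all ventral elements 7.2%, 40.5% and 36.4% were.

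**Figure D3:**
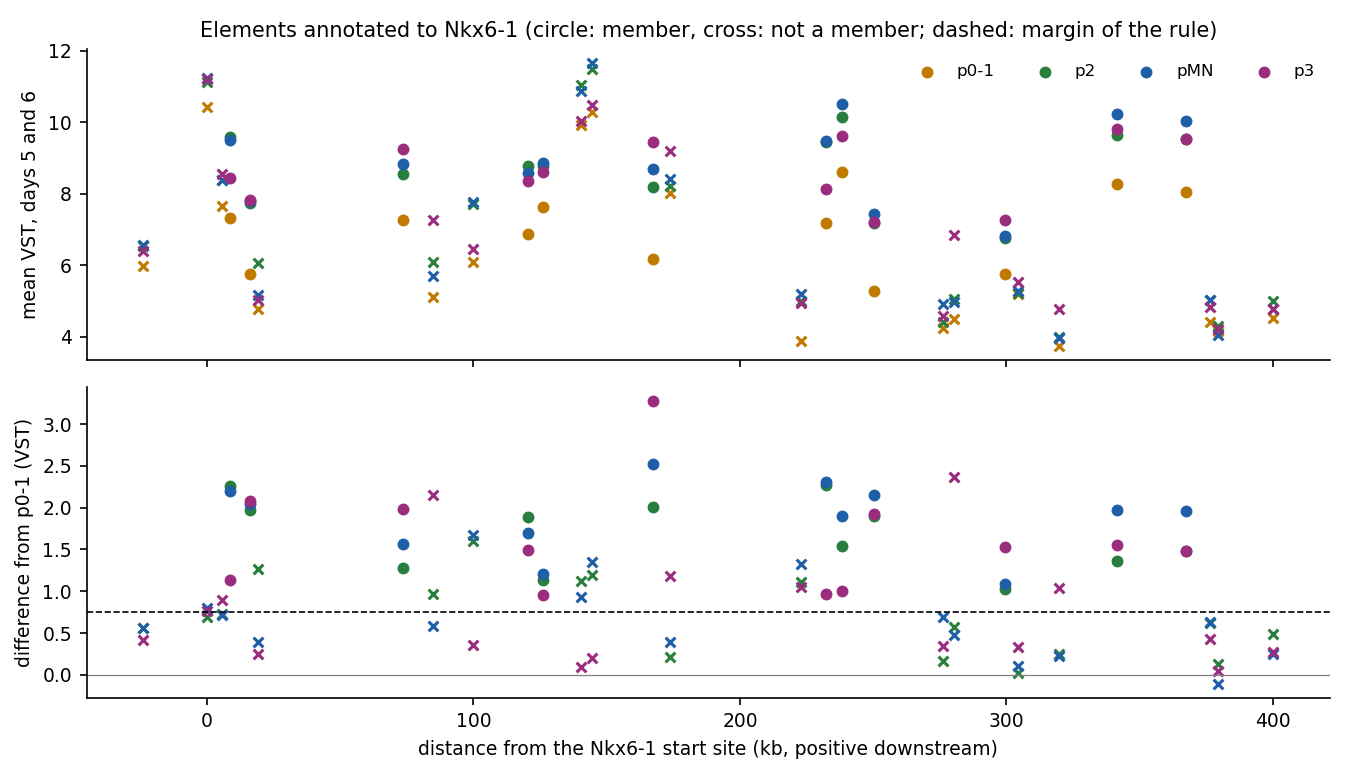
Mean VST on days 5 and 6 (upper panel) and the difference from p0-1 (lower panel, dashed line at the 0.75 of the rule) of the 29 elements annotated to Nkx6-1, by distance from its TSS in kb (x axis); colors are cell types, circles are the 12 ventral elements and crosses the others. These all lie downstream of the TSS, from 8798 to 367191 bp, and the difference is a description because it chose them.

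In the other lists the share of ventral elements was between 0.787% and 1.91%, where it was 0.883% of all elements. Of 253 elements annotated to dorsal and intermediate identity factors 2 were ventral elements, at Msx1 and Olig3, and none was called at day 4. Of 209 annotated to neuronal determinants 4 were, 3 near Neurod4, a proneural factor, and 1 far from Isl1, a motor neuron factor. The Notch list held 1 of 127, the progenitor Sox and NFI list 3 of 195, and the axon guidance list 9 of 603. Of the Sox elements, that in an intron of Sox6 at 271121 bp was called in all 3 types, with differences of 1.25 ± 0.17 in p2, 1.26 ± 0.16 in pMN and 1.30 ± 0.24 in p3.

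The 3 elements near Neurod4 behaved differently from each other. At 20584 bp, where 6 E-boxes stand in 300 bases, all samples of day 4 had between 10.5 and 34.3 counts, and the NMP samples had 16.2, 18.2 and 23.7. The differences from p0-1 at day 4 were 0.03 ± 0.17 in p2, 0.03 ± 0.15 in pMN and -0.02 ± 0.20 in p3. On days 5 and 6 the p0-1 samples ranged from 10.3 to 39.7 counts with a median of 21.2, and the pMN samples from 84.2 to 185 with a median of 146. The element at -7948 bp was called at day 4 in pMN alone (1.44 ± 0.18) and that at -13611 bp in p3 alone (1.28 ± 0.16). The Isl1 element at 558315 bp had between 0 and 5.39 counts in NMPs and medians of 6.29 in p0-1, 12.0 in p2, 18.7 in pMN and 7.89 in p3 at day 4. On day 6 its medians were 49.4, 261, 252 and 129.

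The largest margins were at elements named by other genes. The largest, 2.30, was at 6720 bp from Arc, a gene induced by neuronal activity, with p0-1 counts of 17.6 to 41.1 at day 4 and of 13.4 to 41.6 on days 5 and 6. The samples of p2 had 66.7 to 106, those of pMN 111 to 171 and those of p3 94.8 to 172 at day 4, all above p0-1. At -39722 bp from Grik3, a glutamate receptor subunit gene, the 6 p0-1 samples of day 4 had at most 34.3 counts and the lowest sample of a ventral type had 47.4. By days 5 and 6 its p2 median was 860.0 and its pMN median 919, against 104 in p0-1. At 44656 bp from Gm815 the day 4 difference was 3.36 ± 0.29 in pMN and 2.82 ± 0.35 in p3 (adjusted p = 1.51e-06 and 5.31e-05 from limma), and 1.78 ± 0.39 in p2 (adjusted p = 0.0365, 0.004 with the replicate block). Among the ventral elements more open in p3 than in pMN was that at -137117 bp from Frmd4b. There the 5 p3 samples of day 4 had 139, 149.8, 304, 337 and 389 counts, while pMN ranged from 9.75 to 57.9 and p0-1 from 1.96 to 14.1. The difference of p3 was 4.0 ± 0.27 from p0-1 and 2.72 ± 0.30 from pMN (adjusted p = 5.11e-07 and 2.92e-06 from limma).

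**Figure D4:**
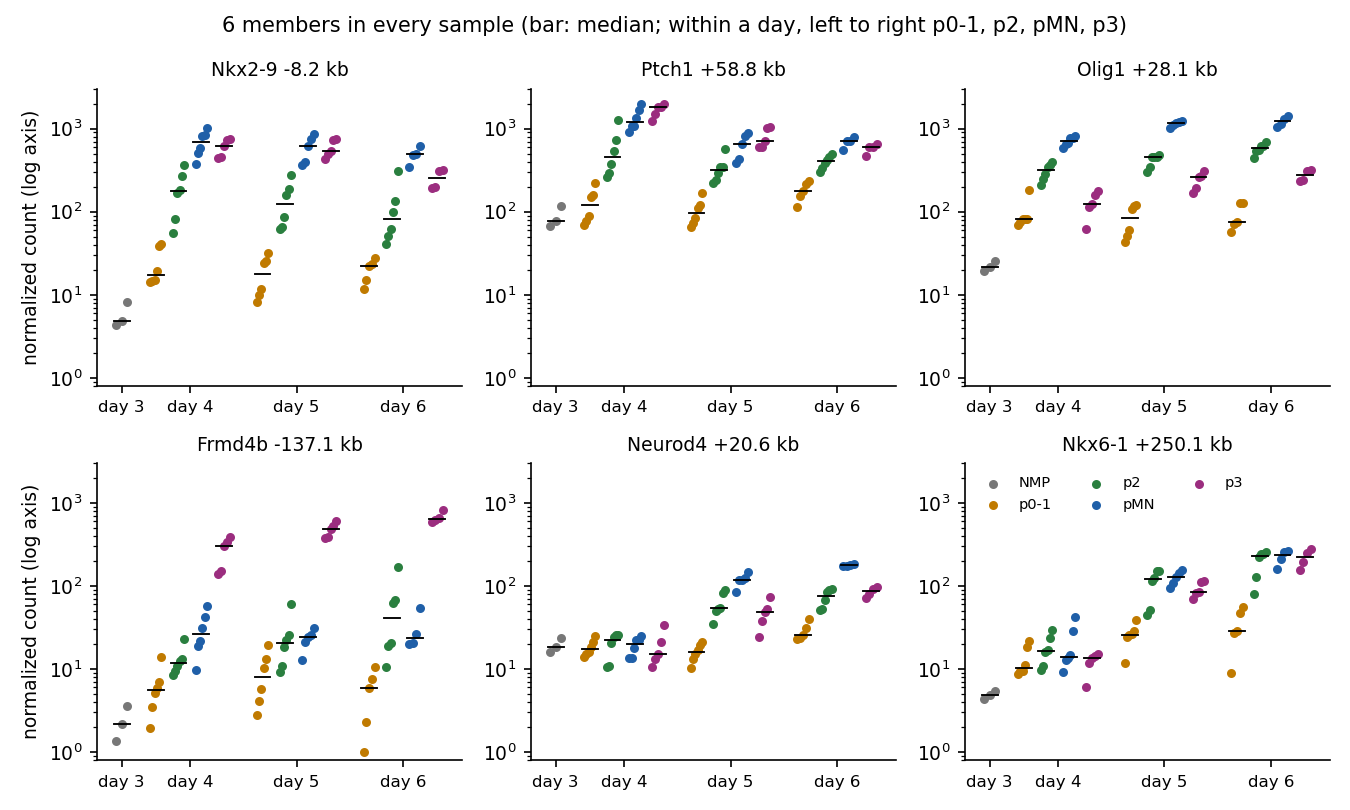
Normalized counts (y axis, log scale, values under 1 drawn at 1) of 6 ventral elements in every sample, by day and cell type; points are samples and bars are medians. The elements near Nkx2-9, Ptch1, Olig1 and Frmd4b are apart from p0-1 at day 4 in at least 1 ventral type, whereas those near Neurod4 and at 250113 bp from Nkx6-1 are at most 41.9 in every type at day 4.

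The 13 ventral elements at promoters were at Foxp2, Il5ra, Olfr598, Cmip, St18, Mobp, Kcnmb1, Nkx2-9, 6430562O15Rik, Gm15941, Commd9, 6430503K07Rik and Elavl4. That of St18, which encodes a zinc finger factor, was called in all 3 types at day 4 (1.05 in p2, 1.48 in pMN and 1.71 in p3). Those of Nkx2-9 and 6430503K07Rik were called in pMN and p3, and that of Commd9 in p3.

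Within a cell type, the SAG concentrations were compared over days 4, 5 and 6 with the day in the model. The samples of days 5 and 6 also entered the choice of the elements, which pooled the concentrations, so that this comparison is not independent of the choice. Day 4 alone is: no element was called there in p2, and at an unadjusted p under 0.05 91 ventral elements (9.23%, against 1.27% of all elements) were higher and 45 (4.56%, against 2.73%) lower at 100 nM. Over the 3 days, 11 ventral elements of p2 were higher at 100 nM than at 10 nM (background 0.0143%) and 2 were lower (background 0.0179%). Below the threshold the elements split both ways: at an unadjusted p under 0.05, 258 (26.2%) were higher and 283 (28.7%) lower at 100 nM, against 7.29% and 12.9% of all elements, and the median difference was -0.04 with quartiles of -0.34 and 0.29. In p0-1, pMN and p3 no element was called by limma, with backgrounds of 0.00179% higher and 0.00806% lower at 10 nM in p0-1 and 0% in pMN and p3. At an unadjusted p under 0.05, 266 were higher and 8 lower at 10 nM in p0-1, 62 and 4 at 500 nM in pMN, and 91 and 0 at 500 nM in p3. Of the ventral elements these are 27% and 0.811% in p0-1, 6.29% and 0.406% in pMN, and 9.23% and 0% in p3. Of all elements the shares were 4.85% and 9.88%, 1.7% and 2.24%, and 2.07% and 1.38%. The lowest adjusted p was 0.0118 in p0-1, 0.442 in pMN and 0.985 in p3. In p0-1 the median difference was 0.22, and 820 elements (83.2%) were above 0, against 54% of all elements. This difference was seen on the days that chose the elements. The median of the p0-1 sample medians at 0 and 10 nM was 5.607 and 5.625 at day 4. It was 5.73 and 6.04 at day 5 and 5.71 and 6.13 at day 6. In p3 the median difference was 0.17, and 843 (85.5%) were above 0, against 54.1% of all elements. Depth in p3 at day 4 ran with the concentration. The 100 nM samples had 9298160, 9577692 and 13974633 reads, and the 500 nM samples 16667003 and 23973955. Their medians over the ventral elements were 6.23, 6.23 and 6.78 at 100 nM, and 6.89 and 6.87 at 500 nM. The part of depth in the p3 difference was not tested.

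Some of the printed elements show the directions taken in p2. At -31322 bp from Pla2r1, the 3 samples of p2 at 10 nM had 85.6, 93.1 and 117 counts at day 4, and those at 100 nM had 181, 192 and 194. Over days 4 to 6 the difference was 1.17 ± 0.11 (adjusted p = 7e-05 from limma), the smallest adjusted p among the 13 called. At -8166 bp from Nkx2-9 it was 1.41 ± 0.20 (adjusted p = 0.00156) and near Gm815 1.43 ± 0.23 (adjusted p = 0.00457). In the other direction, at -43050 bp from Clmn the day 4 samples had 102, 102 and 141 counts at 10 nM and 48.9, 50.0 and 52.2 at 100 nM, and the difference was -1.09 ± 0.13 (adjusted p = 0.000548). At 20584 bp from Neurod4 it was -0.57 ± 0.11, with an adjusted p of 0.00989 but short of the size threshold. The calls in p2 rest on few samples, since they were 0 without replicate 1 or replicate 2 and 10 without replicate 3.

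The direction in p2 was also read against the day 4 calls. Of the 522 elements called at day 4 in at least 1 type, 351 were above 0 at 100 nM in p2 and the median difference was 0.19. Of the 464 called in none, 109 were above 0 and the median was -0.26. The day 4 samples of p2 entered both the calls and this contrast. Some neuronal markers moved with the same contrast: over days 4 to 6, the median of Tubb3 was 1695 counts at 10 nM and 912 at 100 nM in p2 and that of Elavl3 1032 and 656. Those of Isl1 (878 and 847), Mnx1 (726 and 773) and Lhx1 (1017 and 1058) differed less, the last 2 in the other direction, and the means of the 5 summed to 5301 and 4674. Their part in the result was not tested.

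Motif letters were counted in the central 300 bases of every element, on both strands. The E-box CAGATG was found in 41.8% of the ventral elements, 25.7% of all elements and 25% of the other accessible elements that were also more than 2000 bp from a TSS, the distal comparison set. The E-box CAGCTG was found in 31.0%, 21.1% and 21.6%. The homeodomain letters TAATTA were in 13.3%, 7.84% and 8.24%, the FOX letters GTAAACA in 9.43%, 4.95% and 4.82%, and the GLI letters ACCACCC in 7.20%, 4.27% and 4.24%. The SOX letters ACAATG were in 27.8%, 21.1% and 23.7%, and the NKX2 letters CACTTNA in 18.3%, 15.0% and 15.4%. For TTGGCA (NFI), ATGCAAA (POU), GTTGCCA (RFX), TGANTCA (AP-1) and CATTCCA (TEAD), the shares in ventral elements and in all elements were 16.7% and 14.9%, 6.49% and 6.24%, 4.67% and 4.57%, 10.3% and 9.72%, and 5.38% and 6.81%. In the mirror set of 444 elements, CAGATG was in 19.8%, GLI letters in 3.38% and TEAD letters in 12.2%. CAGCTG was in 16.0% of them, homeodomain letters in 7.43% and FOX letters in 2.25%. SOX letters were in 26.1%, NKX2 letters in 19.1% and NFI letters in 17.6%, close to their shares in the ventral elements. GC content had a median of 46.2% in ventral elements and 48% in the distal comparison set, and a share of letters depends on it.

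The letters differed with the direction in p2, in the contrast over days 4 to 6. Of the 258 elements higher at 100 nM, 40 (15.5%) held the GLI letters, 25.2% CAGATG and 20.5% CAGCTG. Of the 283 lower ones, 15 (5.30%) held the GLI letters, 174 (61.5%) CAGATG and 123 (43.5%) CAGCTG. By day 4 call, CAGATG was in 35.2% and the GLI letters in 8.62% of the elements called at day 4 in at least 1 type, and in 49.1% and 5.60% of those called in none. The printed elements are examples of both. Nkx2-9, Gm815 and Pla2r1 were called higher at 100 nM and hold the GLI letters, that of Nkx2-9 with 1 CAGCTG as well. Those near Neurod4 and Isl1, with differences of -0.57 and -0.88 that were not called, hold E-boxes. All of these were picked for this, so the shares over the 258 and 283 ventral elements carry the comparison. It is a description of letters with no test. The same split was not made for elements outside the set, so it cannot be called particular to the ventral elements.

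**Figure D5:**
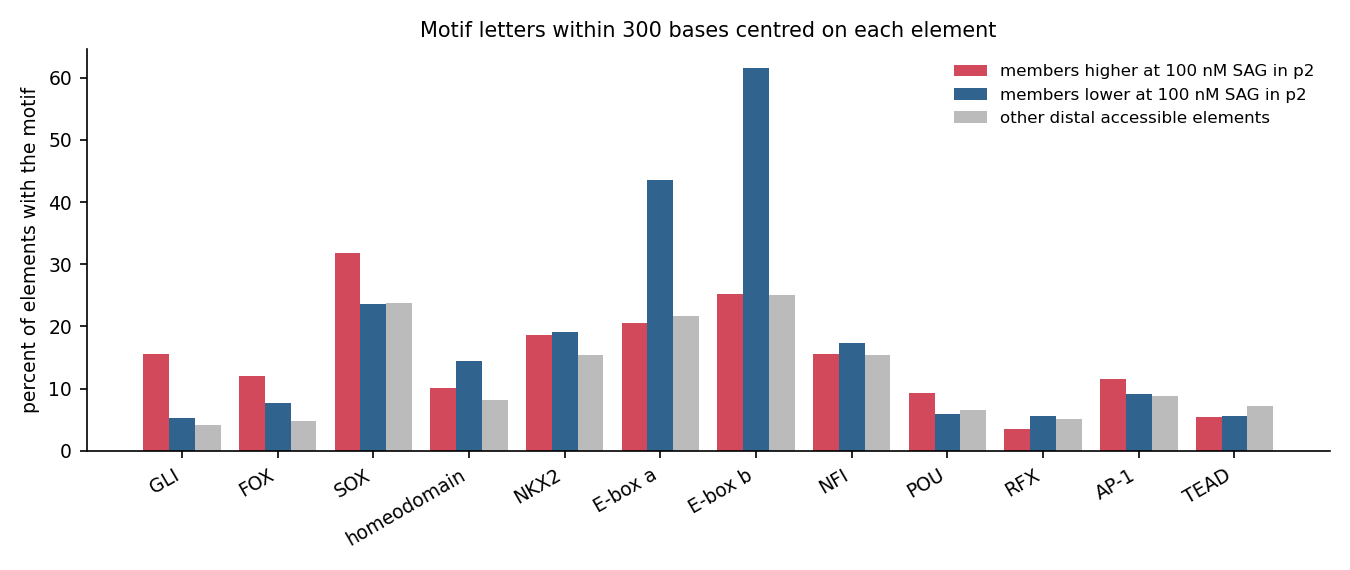
Percent of elements with each motif (x axis) in their central 300 bases (y axis) for ventral elements (members) higher or lower at 100 nM SAG in p2 at an unadjusted p under 0.05 and for the other distal accessible elements; E-box a is CAGCTG and E-box b is CAGATG. E-box b is in 61.5% of the lower elements and in 25.2% of the higher ones, and the GLI motif in 5.30% and 15.5%.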

How the data were processed

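The authors processed the CaTS-ATAC reads with the nf-core ATAC-seq pipeline on mm10, called peaks with MACS, counted reads in consensus elements with featureCounts, transformed the counts with DESeq2, and deposited log2-scale VST values of 111638 elements in 67 samples, with an annotation of 133549 elements. The VST was inverted to recover normalized counts and reads, of which 100% of the values below 1000 reads were whole to within 1e-06. Depth was between 9298160 and 29985325 reads per sample.

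The members and gene lists were chosen with earlier results of these data known. The authors tested with DESeq2; here the deposited scale is log2, so limma 3.58.1 (R 4.3.3) was used with a variance trend, two-sided, on all 111638 elements and with only the groups compared. Adjusted p-values are Benjamini-Hochberg values over all elements, and calls needed one under 0.01 with a difference above 1. SAG comparisons had the day as covariate. In simulated data with 200 changed elements per fold, 179 were recovered at 2.5-fold and 200 at 4-fold for p2 at day 4. For p3 169 and 200 were, and for p2 at 10 nM 49 and 189, each with at most 1 false call. Changes were placed only in elements above a minimum mean count, with a common spread and no replicate effect. The median ventral element had 37.4 counts in p0-1 and 65.2 in p2 at day 4. The recovery therefore does not carry over to the ventral elements. Replicate numbers of the titles paired the samples (r over 0.1 in every same-numbered pair) for p2 and pMN against p0-1 at day 4 (lowest r 0.261 and 0.175), p2 against p0-1 at 10 nM (0.279) and SAG in pMN (0.169). For 15 samples the description gives another number than the title.

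Named elements were the 8 largest margins, the 6 largest day 4 differences among those called in all 3 types, up to 4 per gene list, 2 on each side of the threshold, the genes with most members, up to 3 per SAG comparison and up to 4 per direction between p3 and pMN, of which the text gives some. All members of the Hedgehog and ventral lists, the promoter members and the printed sequences were added after values were seen. One listed marker gene is not reported here. Motifs and sequences used the GRCm38.p6 reference, in which all 111638 elements ended inside their chromosome and 12534 of 13785 elements near a TSS (90.9%) lay within 2000 bp of an end of the gene of that name. Python 3.11.15, numpy 2.4.6, scipy 1.17.1 and pysam 0.24.0 were used. Alternatives covered the rule, filter, thresholds, scaling, model, block and left-out replicates.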

Additional observations from a re-analysis of the deposited data

Results flagged for a closer look

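In 108 groups of 4 to 10 samples, made of the sample medians of the ventral elements and the normalized counts of the 16 elements described most fully, 7 had a highest or lowest sample apart from the rest by Dixon's test. Chance flags about 1 in 20 groups. All 7 were counts of single elements. In p2 at day 4, 100 nM replicate 3 was the highest sample at 15890 bp from Ptch1 (151.9 counts, the others between 39.5 and 67.8), at 44656 bp from Gm815 (593.2, the others between 74.3 and 244) and at -137117 bp from Frmd4b (22.78, the others between 8.47 and 13.3). In p0-1 at day 4, 10 nM replicate 3 was the highest at 28122 bp from Olig1 (182.7, the others between 68.5 and 82.6) and at 44656 bp from Gm815 (106.1, the others between 26.7 and 48.5). In p3 at day 4, 100 nM replicate 2 was the lowest at 16279 bp from Nkx6-1 (140.3, the others between 235 and 264). In pMN on days 5 and 6, 500 nM replicate 3 of day 6 was the highest at -137117 bp from Frmd4b (53.71, the others between 12.9 and 31.6). Replicate 3 was the highest sample in 6 of the 7.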

How the results depend on the processing

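A margin of 0.5 gave 1926 members and of 1 gave 496. Centering samples on their median gave 722, all among the 986, and leaving out a replicate between 958 and 1126. With only elements above a mean of 100 counts, which tests fewer elements, the day 4 calls became 25 in p2, 194 in pMN and 172 in p3, 28 for p3 above pMN and 38 below it, and those against NMPs 106 in p0-1, 212 in p2, 313 in pMN and 289 in p3. For p2 at day 4, an adjusted p under 0.05 gave 132, the replicate block 140 with the numbers of the titles and 140 with those of the descriptions, and all samples in the fit 148. At 10 nM, all samples in the fit gave 85. With no size threshold 126 were above and 167 below pMN in p3, and with a size of 0.75 126 were below. For SAG in p0-1, an adjusted p under 0.05 gave 6, the replicate block 4, centering 4, voom 2, all samples 6 and day 5 alone 1. For SAG in p2, a size of 0.75 gave 32, no size 49, a fold above 2 in counts 23, no variance trend 7, voom 22, and each of days 4, 5 and 6 alone 0. Leaving out a replicate gave 0 to 1 in p2, 337 to 375 in pMN and 190 to 344 in p3 at day 4, 45 to 67 and 50 to 87 for p3 above and below pMN, 329 to 480, 598 to 651, 692 to 727 and 651 to 689 against NMPs in p0-1, p2, pMN and p3, and 0 to 10 for SAG in p2. The replicate block moved no other count by over 1.5 times. Of these counts 181 alternatives stayed within 1.5 times and 40 did not. For single elements 186 alternatives lost the call, 60 values moved, 3997 did not and 0 reversed; the p2 calls of day 4 given by name were lost when any replicate was left out. The causes were not tested.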
